A study of Mus musculus with 9 samples.

Results

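Kdm6a (ENSMUSG00000037369, also called Utx) and Kdm6b (ENSMUSG00000018476, also called Jmjd3) encode H3K27 demethylases of the mouse. They were taken as the rows of the deposited count table that carry these symbols, which are 2 of its 46078 genes, and were set beside the methyltransferase gene Ezh2 (ENSMUSG00000029687). Transcript 3′ ends had been sequenced in 9 libraries. Of these, 6 came from MYCN-induced T cell lymphoma cells of the thymus (lymphomas 34, 53, 56, 70, 72 and 86) and 3 from CD4+ T cells of the spleen (CD4 1, 2 and 3), all of strain C57BL/6J. The promoter that drives MYCN, the age of the animals and any treatment are not given in the sources used here, nor is whether a library came from 1 animal or from a pool. If the libraries of a group share an origin, the p-values measure only the spread between these libraries.

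Methyl groups on lysine 27 of histone H3 mark repressed chromatin. They are written by Polycomb repressive complex 2 (PRC2), through its catalytic subunit EZH2 or the paralogue EZH1, and are removed by KDM6A and KDM6B, which use oxygen, iron and 2-oxoglutarate. KDM6A is a subunit of the KMT2C and KMT2D complexes, which methylate lysine 4 of histone H3 at enhancers, while KDM6B is known as an enzyme whose gene is switched on by inflammatory and activating signals. In T cell leukaemia KDM6A is known as a tumour suppressor and KDM6B as a gene that leukaemic cells rely on, and in normal thymocytes the pair is needed for exit from the thymus.

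Kdm6a lies on the X chromosome (GRCm38, chrX:18162575-18279936, plus strand) and is among the few X-linked mouse genes that escape X inactivation. It has a Y-linked homologue, Uty (ENSMUSG00000068457, chrY:1096861-1245759, minus strand), whose protein has little demethylase activity. Kdm6b lies on chromosome 11 (chr11:69398508-69413675, minus strand) and Ezh2 on chromosome 6 (chr6:47530139-47595341, minus strand). All 4 genes are annotated as protein coding. An antisense gene, Kdm6bos, overlaps exons of Kdm6b and had 2 counts over all 9 libraries. Gm26625, on the opposite strand to Ezh2, overlaps its exons and had 493 counts over all libraries, 1.12% of the 44207 counts of Ezh2. It had 45 to 100 counts per lymphoma and 9 to 41 per CD4 library. The strand setting of the counting is not given in the sources used here.

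Promoter sequences from RefSeq (GRCm38.p6) were at hand for Kdm6a, Uty and Ezh2. The last 110 bases before the annotated start of Kdm6a and of Uty are shown because reads from this X and Y pair are summed further on, and because each stretch holds an E-box of the sequence CACGTG (capitals), the palindrome that MYC family proteins are known to bind:
Kdm6a, chrX:18162465-18162574, plus strand: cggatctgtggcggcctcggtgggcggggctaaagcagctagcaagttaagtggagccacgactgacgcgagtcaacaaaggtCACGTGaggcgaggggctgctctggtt
Uty, chrY:1245760-1245869, minus strand: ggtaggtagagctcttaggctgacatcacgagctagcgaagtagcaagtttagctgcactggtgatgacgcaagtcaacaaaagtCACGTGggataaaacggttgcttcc
The match begins at position -27 from the start in Kdm6a and at -25 in Uty. A global alignment of the stretches had 67 identical bases in 116 columns (57.8%). CACGTG reads the same on either strand, and 6.02% of 32851 promoter entries hold it in the 250 bases before their start. The same window of Ezh2 held no match. It lies before the RefSeq start of Ezh2 but inside the gene span given above, whereas those of Kdm6a and Uty end where their gene spans begin. The windows are therefore not fully alike. A match describes these letters only, since binding was not measured in these libraries.

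Reads counted in genes numbered 11170704 to 15769679 per lymphoma and 8099960 to 10808828 per CD4 library. Lymphoma 53 stood apart from the other lymphomas in several genes named below. The CD3 chain genes Cd3e, Cd3d and Cd3g did not pass the test between groups, while Cd4 fell (log2 fold change -2.76, SE 0.717, edgeR adjusted p = 0.0111). Cd4 had 6.04 to 71.9 counts per 1000000 gene reads after TMM scaling (CPM) in lymphoma and 199 to 263 in CD4. Over all tested genes 46.6% passed, 21.9% as lower and 24.7% as higher in lymphoma, and the marker counts that follow stand beside these shares. Of 8 T cell markers tested Cd4 alone passed in the fit of all libraries (median log2 fold change -0.48), but 4 passed without lymphoma 53. The CD8 chain genes Cd8a and Cd8b1 were at 29.4 and 47.6 CPM in lymphoma 53 and at most 1.53 and 0.735 CPM in the other lymphomas, against 25.6 to 31.8 and 35.9 to 44.9 CPM in the CD4 libraries. Without lymphoma 53 they passed as lower, as did Cd4 and the kinase gene Lck (edgeR adjusted p of 9.35e-05 for Cd8a, 7.94e-06 for Cd8b1, 0.0264 for Cd4 and 0.0122 for Lck). DESeq2 called 2 of the 8 and limma voom 3. The CD4 libraries also held transcripts of non-T cells of the spleen. All 10 B cell markers passed the test as lower in lymphoma, with summed levels of 1254 to 1514 CPM in CD4 and 6.85 to 13.4 CPM in lymphoma and none was at 0 throughout a group. Fcer2a, a B cell receptor for IgE and the largest fall of that list, was at least 146-fold lower. Of 8 plasmacytoid dendritic cell markers 7 were lower, led by Siglech (log2 fold change -8.56, SE 0.460, edgeR adjusted p = 2.05e-07), with sums of 857 to 868 CPM in CD4 and 96.2 to 384 CPM in lymphoma. Irf8 and Tcf4, at CD4 means of 322 and 282 CPM, made up most of the CD4 sums, while Siglech had a CD4 mean of 64.6 CPM. The highest lymphoma sum was that of lymphoma 53, where Irf8 had 269 CPM. Of 11 myeloid markers 5 were lower, led by the protease gene Ctss (-3.80, SE 0.336, edgeR adjusted p = 6.03e-06), and their sums overlapped (71.3 to 2232 CPM in lymphoma, 956 to 1163 CPM in CD4). None of 7 erythroid markers tested passed edgeR's test, with 1 at an unadjusted p under 0.05 and 1 called by DESeq2 and by limma voom. Of 6 stromal and thymic epithelial markers tested, Dcn (at least 11.7-fold) and Epcam were higher and the endothelial gene Pecam1 lower (-1.59, SE 0.147, edgeR adjusted p = 6.67e-06). Dcn, Krt5, Krt8 and Foxn1 were at 0 in all CD4 libraries. Fewer cells of a type and less RNA per cell cannot be told apart in such bulk samples, and the part of these cells in the results below was not tested.

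Kdm6a fell in lymphoma to less than its level in any control. The lymphomas, in the order 34, 53, 56, 70, 72 and 86, had 53.1, 38.4, 52.2, 59.8, 54.5 and 47.7 CPM, against 109.5, 121 and 127 CPM for CD4 1 to 3. The groups did not overlap, and lymphoma 53 was the lowest of all libraries. The lymphoma mean was 51.0 ± 7.30 CPM (SD, n = 6), against a CD4 mean of 119 ± 9.05 CPM (SD, n = 3). The fitted difference was 2.34-fold, a log2 fold change of -1.23 (SE 0.161, 95% interval -1.58 to -0.88) with an adjusted p of 8.16e-05 by edgeR's quasi-likelihood test. A difference of this kind was common: 46.6% of the 15401 tested genes passed the test, 21.9% as lower and 24.7% as higher in lymphoma, and 44.9% did not overlap between groups. A more negative change was fitted for 19.7% of all tested genes and for 20.5% of the 498 tested genes of the X chromosome.

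**Figure D1:**
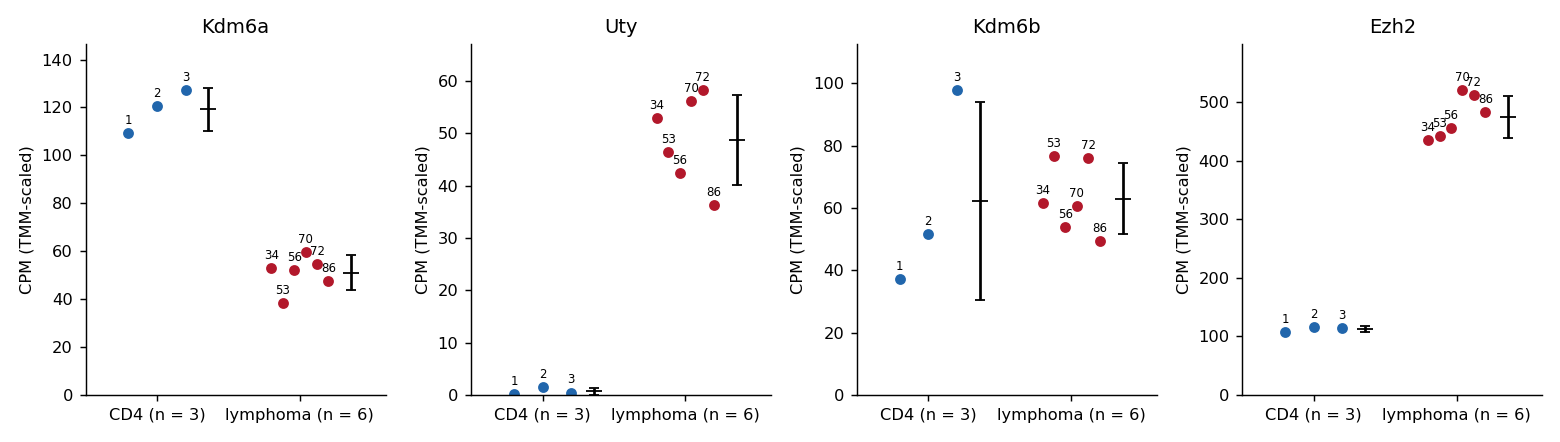
Levels of Kdm6a, Uty, Kdm6b and Ezh2 in CPM (vertical axes, each on its own scale from 0) in CD4 libraries (blue, n = 3) and lymphomas (red, n = 6). Each point is a library with its number, and the black bar is the mean ± SD. Kdm6a lies lower and Ezh2 and Uty higher in every lymphoma than in every CD4 library, while Kdm6b overlaps between the groups.

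Y-linked transcripts and group coincided in these libraries, and sex was read from these transcripts alone. For Uty the lymphomas, in the same order, had 820, 509, 583, 918, 891 and 502 reads, against 1, 12 and 5 reads for CD4 1 to 3. Every lymphoma thus carried Y-linked transcripts and the CD4 libraries were close to none. Its mean was 48.8 ± 8.56 CPM (SD, n = 6) with lymphoma, against 0.665 ± 0.696 CPM (SD, n = 3) with CD4 (log2 fold change 6.26, SE 0.531, edgeR adjusted p = 3.55e-06). The other Y-linked genes tested, which are the histone demethylase gene Kdm5d, the RNA helicase gene Ddx3y and the translation factor gene Eif2s3y, were also higher in all lymphomas. Ddx3y rose by 8.08 (SE 0.362) and Eif2s3y by 7.22 (SE 0.337) on the log2 scale, and Kdm5d, at most 3 counts in any CD4 library, was at least 122-fold higher. The median of the 4 genes was 7.59, or 7.08 with Kdm5d at its bound.

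Reads of Kdm6a and Uty were added to give the joint level of the X and Y pair. In the same order of lymphomas the sum was 106, 84.8, 94.7, 116, 113 and 84.0 CPM, against 109.6, 122 and 128 CPM for CD4 1 to 3. Lymphomas 70 and 72 exceeded CD4 1, so the groups overlapped. Uty supplied 48.8% ± 4.32 (SD, n = 6) of the summed counts in lymphoma, from 43.2% in lymphoma 86 to 54.8% in lymphoma 53. The mean sum was 99.7 ± 13.9 CPM (SD, n = 6) for lymphoma against 120 ± 9.35 CPM (SD, n = 3) for CD4, a mean log2 difference of -0.28 against -1.23 for Kdm6a alone. This difference did not pass a permutation test (exact, two-sided, over libraries; p = 0.0714, and 0.0714 after Benjamini-Hochberg adjustment over 6 measures per library). With RLE or upper quartile scaling it was -0.33 or -0.38 and passed (adjusted exact p = 0.0476). Because tissue, group and sex as read from Y-linked transcripts coincide, their parts in the level of Kdm6a cannot be told apart. In the last 1000 bases of their annotated transcripts Kdm6a and Uty shared identical runs of up to 48 bases, so reads in such stretches could be counted for neither or for the wrong member of the pair.

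**Figure D2:**
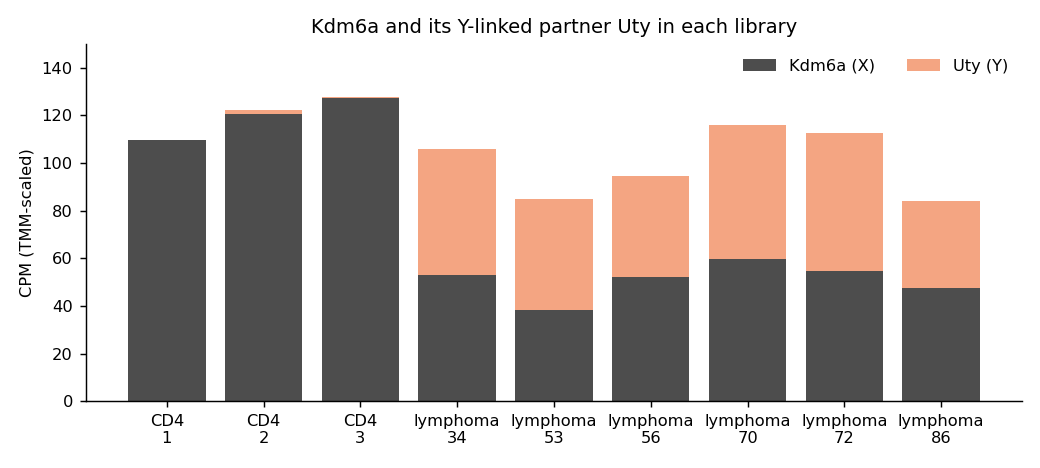
Stacked bars give CPM of Kdm6a (dark) and Uty (light) in each of the 9 libraries, on a linear axis from 0. The CD4 bars, 109.6 to 128 CPM, are almost wholly Kdm6a, while Uty makes up 43.2% to 54.8% of the counts in the lymphoma bars, which reach 84.0 to 116 CPM.

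Other X-linked genes known to escape inactivation were read beside Kdm6a. Of 7 such genes tested, 2 were lower, 1 was higher and 4 did not pass (median log2 fold change 0.15, against 0.06 over the tested X genes, of which 41.8% passed and 21.3% as lower). Kdm5c, an H3K4 demethylase gene with the Y-linked partner Kdm5d, fell by 0.55 (SE 0.154, edgeR adjusted p = 0.0119), and Ftx, a non-coding neighbour of Xist, fell by 0.82 (SE 0.264, edgeR adjusted p = 0.0227). Without CD4 2 the call of Kdm5c was lost (edgeR adjusted p = 0.0502), and that of Ftx was lost there and in 5 other alternatives of 19. Pbdc1 rose by 0.72 (SE 0.252, edgeR adjusted p = 0.0345), a call lost in 4 alternatives, one of them without CD4 2. The changes of Ddx3x (0.25, SE 0.199), Eif2s3x (0.57, SE 0.301), Jpx (0.15, SE 0.339) and 5530601H04Rik (-0.56, SE 0.309) did not pass. Kdm6a kept its call in all 19 alternatives.

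Summing each X-linked gene with its Y-linked partner, a measure added after the data were seen, gave unlike results for the 4 pairs. In group means the log2 ratio of lymphoma to CD4 moved from -0.55 for Kdm5c alone to 0.10 for Kdm5c plus Kdm5d, and the sums overlapped (121 ± 7.03 CPM, SD, n = 6, and 112 ± 8.83 CPM, SD, n = 3). For Ddx3x with Ddx3y it moved from 0.25 to 0.60, and for Eif2s3x with Eif2s3y from 0.57 to 2.04, the one pair whose sums did not overlap. For Kdm6a with Uty it moved from -1.23 to -0.27. Among 11 X-linked genes subject to inactivation, 4 were higher and 3 lower (median 0.22), from the glycolytic gene Pgk1 (2.47, SE 0.226, edgeR adjusted p = 6.16e-06) to Msn, which encodes the cytoskeletal linker moesin (-1.13, SE 0.156, edgeR adjusted p = 0.000125). Over all tested X genes 20.5% were higher and 21.3% lower.

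Kdm6b did not differ between the groups beyond the spread of the libraries. The lymphomas, from 34 to 86 as above, had 61.5, 76.7, 53.9, 60.5, 76.1 and 49.3 CPM, against 37.2, 51.6 and 97.9 CPM for CD4 1 to 3. CD4 3 was the highest and CD4 1 the lowest of all 9 libraries, and all lymphomas lay between them. The lymphoma mean of 63.0 ± 11.3 CPM (SD, n = 6) lay close to the CD4 mean of 62.2 ± 31.7 CPM (SD, n = 3), with a log2 fold change of 0.017 (SE 0.273, 95% interval -0.58 to 0.61, edgeR adjusted p = 0.966). The interval leaves room for changes up to about the size of that of Kdm5c in either direction. CD4 3 moved the value most: without it the log2 fold change was 0.51 (edgeR adjusted p = 0.112), and without CD4 1 it was -0.23 (0.516).

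Some signal-induced genes, chiefly immediate early ones, stood high in the same control library, and others did not. CD4 3 was the highest control for 6 of 12 genes on the list (Egr1, Fos, Jun, Junb, Rel and Tnfaip3), the lowest for 3 (Nfkb1, Nfkb2 and Relb) and between the others for 3 (Egr2, Nfkbia and Rela). The list of 12 NF-kB subunits, NF-kB targets and immediate early genes summed to 3350 CPM in CD4 3, 1758 and 1747 CPM in CD4 1 and 2, and 537 to 653 CPM in lymphoma. Jun, an AP-1 subunit and immediate early gene, had 910 CPM in CD4 3 and 126 and 240 CPM in CD4 1 and 2. The NF-kB target and inhibitor Tnfaip3 had 170 CPM in CD4 3 against 10.2 and 18.8 CPM, and Fos, the AP-1 partner of Jun, 169 against 22.7 and 50.2 CPM. Among the genes that did not peak there, the NF-kB subunit gene Relb had 31.7 CPM in CD4 3 against 44.4 and 32.0 CPM, and Nfkbia, which encodes an NF-kB inhibitor, 806 against 840 and 684 CPM. Jun and Junb together made up 1453 CPM of the sum in CD4 3, against 252 and 426 CPM in CD4 1 and 2, and the other 10 genes summed to 1898 CPM against 1506 and 1322 CPM. Between the groups 11 of the 12 genes were lower in lymphoma (median log2 fold change -2.97, or -1.93 without CD4 3), led by Jun (-7.49, SE 0.644, edgeR adjusted p = 1.22e-05), while Egr2 did not pass. Over all tested genes 21.9% passed as lower. Lymphomas thus had Kdm6b at levels between those of the controls alongside the lowest sums of this list, and a part of these genes in the level of Kdm6b was not tested.

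**Figure D3:**
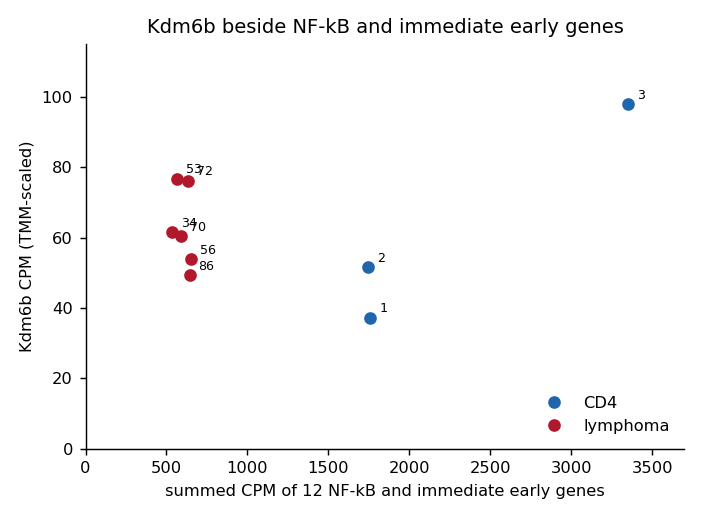
Kdm6b in CPM (vertical axis) against the summed CPM of 12 NF-kB and immediate early genes (horizontal axis), 1 point per library with its number, CD4 in blue and lymphoma in red. CD4 3 has the highest value on both axes (97.9 and 3350 CPM), and the lymphomas span 49.3 to 76.7 CPM of Kdm6b at sums of 537 to 653 CPM.

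Ezh2 rose while Kdm6a fell, so the ratio of Ezh2 to Kdm6a transcripts was higher in every lymphoma than in every control. The Ezh2 mean was 475 ± 36.1 CPM (SD, n = 6) for lymphoma against 112 ± 4.78 CPM (SD, n = 3) for CD4 (log2 fold change 2.08, SE 0.144, edgeR adjusted p = 7.59e-07). The log2 ratio of Ezh2 to Kdm6a counts, which does not depend on library scaling, was 3.03, 3.53, 3.12, 3.12, 3.23 and 3.34 over the lymphomas, again from 34 to 86, against -0.037, -0.063 and -0.16 for CD4 1 to 3. Lymphoma 53, with the least Kdm6a, had the highest ratio, and the groups lay far apart. The ratio differed by 3.32 log2 units (9.95-fold; 3.23 ± 0.179, SD, n = 6, and -0.086 ± 0.0637, SD, n = 3). The exact two-sided permutation p was 0.0238, the smallest that 6 against 3 libraries allow, and 0.0286 after adjustment over the 6 measures. Since Ezh2 was higher and Kdm6a lower in every lymphoma than in every control, the ratio had to separate the groups. Its p therefore follows from the 2 genes and is no separate result.

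Ezh2 was set against the Kdm6a and Uty sum and against Kdm6b in the same way. The log2 ratio of Ezh2 to Kdm6a plus Uty, added after the data were seen, was 2.04 to 2.52 in lymphoma and -0.16 to -0.038 in CD4, a difference of 2.35. The ratio of Ezh2 to Kdm6b was 2.53 to 3.29 in lymphoma and 1.52, 1.16 and 0.22 in CD4 1, 2 and 3, a difference of 1.96 that was 1.59 without CD4 3. Neither ratio overlapped between groups, and each had the same exact two-sided permutation p of 0.0238 (adjusted 0.0286). Ezh2 by itself rose by 2.08 without overlap, as did not overlap 44.9% of all tested genes. Kdm6b changed by 0.017 and the Kdm6a and Uty sum by -0.28. Both ratios thus carry mainly the rise of Ezh2 and are no separate result about the demethylase genes. The ratio of Kdm6a to Kdm6b also moved without overlap, from 0.38 to 1.56 in CD4 to between -0.999 and -0.016 in lymphoma. Its difference of -1.35 (exact permutation p = 0.0238, adjusted 0.0286) compares the changes of the 2 demethylase genes. It carries mainly the fall of Kdm6a (-1.23), which did not overlap by itself, and is no separate result about that fall. These ratios compare libraries, and they do not rank the genes by level, since counts were not divided by length.

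**Figure D4:**
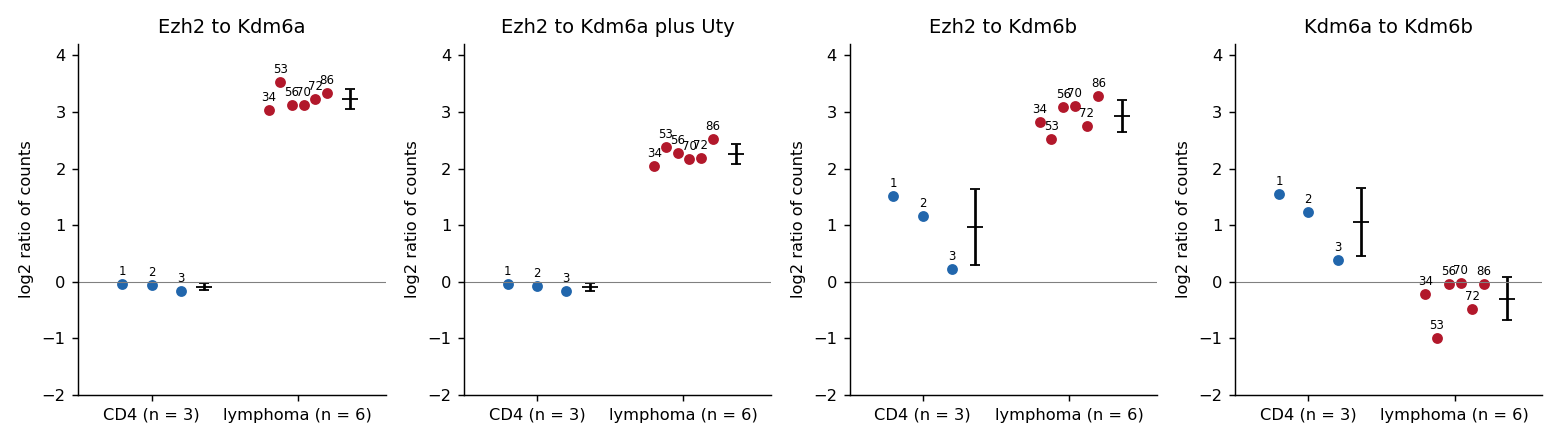
Log2 ratios of counts within each library (vertical axes, common scale) for Ezh2 to Kdm6a, Ezh2 to Kdm6a plus Uty, Ezh2 to Kdm6b and Kdm6a to Kdm6b. Points are libraries with their numbers, bars are mean ± SD, and the grey line marks equal counts. In all 4 panels the lymphomas and the CD4 libraries do not overlap, and CD4 3 lies closest to the lymphomas in the panel of Kdm6a to Kdm6b.

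The subunit genes of PRC2, the opposing complex, did not all move in the same direction. Of 12 subunit genes tested 6 were higher, 3 lower and 3 did not pass, and the median log2 fold change was 0.53 against 0.04 over all tested genes. Over all tested genes 24.7% were higher and 21.9% lower. The 12 genes summed to 1420 to 1720 CPM in lymphoma and 1026 to 1094 CPM in CD4. Ezh2 alone had 435 to 521 CPM in lymphoma and 107 to 116 CPM in CD4. With at least 10 counts in every library 3 were higher. Phf19, an accessory subunit that guides PRC2 to its targets, rose most (4.05, SE 0.439, edgeR adjusted p = 2.08e-05), and the related Phf1 fell most (-3.72, SE 0.274, edgeR adjusted p = 1.27e-06). Ezh1, the second catalytic subunit, fell, so that the log2 ratio of Ezh2 to Ezh1 differed by 3.01 (3.57 to 3.97 in lymphoma and 0.58 to 1.06 in CD4, exact permutation p = 0.0238, adjusted 0.0286). As Ezh2 rose and Ezh1 fell, each without overlap, this ratio had to separate the groups and its p is no separate result.

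The partners of KDM6A in the KMT2C and KMT2D complexes moved in opposite directions. Of 9 listed genes, 8 were tested, 4 were higher and 2 lower, and 2 did not pass (median 0.85). Over all tested genes 24.7% were higher and 21.9% lower, with a median of 0.04. The scaffold and methyltransferase gene Kmt2c fell by 0.97 (SE 0.295, edgeR adjusted p = 0.0180), with 147 to 405 CPM in lymphoma and 450 to 489 CPM in CD4. Its paralogue Kmt2d fell by 0.86 (SE 0.269, edgeR adjusted p = 0.0208), with 91.8 to 108 CPM in 5 lymphomas but 226 CPM in lymphoma 53, inside the range of 198 to 231 CPM in CD4. The lowest level of Kdm6a and the highest of Kmt2d among lymphomas were thus in the same library. Each of these calls was lost in 4 of 19 alternatives, Kmt2c whenever a CD4 library was left out and Kmt2d without CD4 2 or CD4 3.

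Of the 4 core subunits that all KMT2 complexes share, 3 rose. Ash2l rose by 1.96 (SE 0.201, edgeR adjusted p = 1.41e-05), Dpy30 by 1.83 (SE 0.196), and Wdr5, the platform of the core, by 1.38 (SE 0.220), while Rbbp5 stood at 0.47 (SE 0.188, edgeR adjusted p = 0.0575). Of the subunits found with KDM6A and not in other KMT2 complexes, Paxip1 rose by 1.24 (SE 0.210, edgeR adjusted p = 0.000542), the coactivator Ncoa6 stood at -0.0038 (SE 0.199, edgeR adjusted p = 0.989), and Pagr1a had 0 counts in all libraries in either of its rows. Whether Pagr1a was silent or its reads were assigned to no gene cannot be told from these counts. Kdm6a, Kmt2c and Kmt2d were thus the members of this complex that passed as lower.

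**Figure D5:**
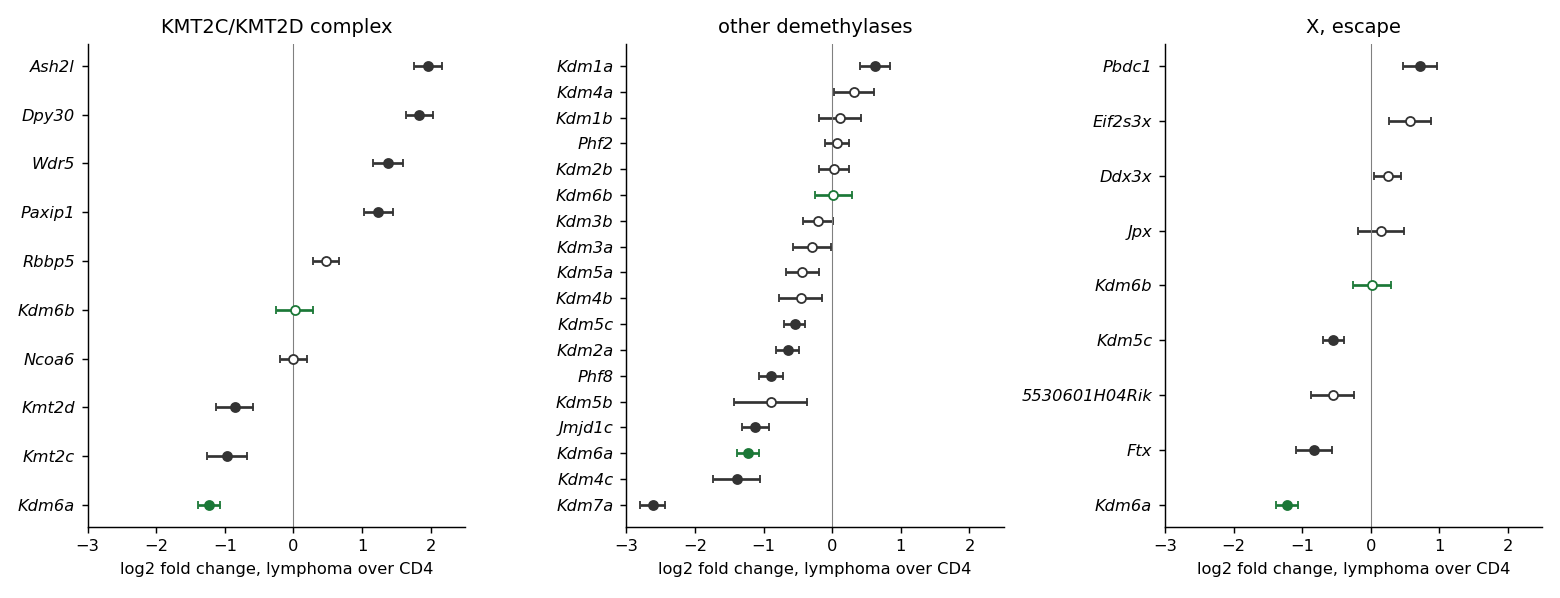
Log2 fold change of lymphoma over CD4 (horizontal axis, error bars 1 SE) for genes of the KMT2C and KMT2D complex, other histone lysine demethylases (Kdm5d, a Y-linked gene, left out) and X-linked genes that escape inactivation, each with Kdm6a and Kdm6b in green. Filled points passed edgeR's test at an adjusted p of 0.05 and open points did not. Kdm6a, at -1.23, lies lowest beside the complex and the escape genes, and above only Kdm4c and Kdm7a among demethylases.

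The other histone lysine demethylases passed the test about as often as tested genes at large. Of 17 genes 6 were lower, 2 higher and 9 did not pass (median -0.43), so 47.1% changed, near the 46.6% of all tested genes. Kdm7a, whose enzyme removes methyl groups from H3K9 and also from H3K27, fell most, with a CD4 mean of 119 ± 14.5 CPM (SD, n = 3) and a lymphoma mean of 19.3 ± 3.56 CPM (SD, n = 6; log2 fold change -2.62, SE 0.178, edgeR adjusted p = 7.14e-07). The H3K9 and H3K36 demethylase gene Kdm4c fell by 1.39 (SE 0.342, edgeR adjusted p = 0.00572) and the KDM3 family gene Jmjd1c by 1.12 (SE 0.199, edgeR adjusted p = 0.000726). The rises were the Y-linked Kdm5d and Kdm1a, the H3K4 demethylase gene also called Lsd1 (0.63, SE 0.222, edgeR adjusted p = 0.0362). The call of Kdm1a was lost with RLE and upper quartile scaling and without CD4 1 or CD4 3. Kdm6a had a fold change more negative than 15 of the 17 genes.

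Genes linked to the cofactors of these enzymes were read as a further list. It holds genes that make 2-oxoglutarate, use it or act after it, so its counts do not measure supply. Of 15 genes of 2-oxoglutarate metabolism and iron uptake, 9 were higher, 0 lower and 6 did not pass edgeR's test (median 1.01, 12 at an unadjusted p under 0.05). Over all tested genes 24.7% were higher and 21.9% lower. DESeq2, limma voom, RLE scaling and library size alone each called 1 gene lower, and upper quartile scaling 2. Tfrc, the transferrin receptor gene for iron uptake, rose most, with a CD4 mean of 43.7 ± 7.15 CPM (SD, n = 3) and a lymphoma mean of 172 ± 32.9 CPM (SD, n = 6; log2 fold change 1.97, SE 0.212, edgeR adjusted p = 1.95e-05). All 7 genes of thymic exit were lower (median -3.99). The receptor gene S1pr1, which directs T cells out of the thymus, fell most (-5.80, SE 0.311, edgeR adjusted p = 2.05e-07), from 350.0 to 467 CPM in CD4 to 4.45 to 11.5 CPM in lymphoma.

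Among the 6 lymphomas the members did not vary together in a detectable way. Kdm6a and Ezh2 in log2 CPM gave r = 0.589 (Pearson, exact permutation p = 0.218) and rho = 0.600 (Spearman, exact p = 0.242), with r at 0.006 without lymphomas 53 and 70. Kdm6b and Ezh2 had an r of 0.015 (exact permutation p = 0.975) and a rho of -0.257 (p = 0.658). Kdm6a and Kdm6b had an r of -0.287 (exact permutation p = 0.635) and a rho of -0.029 (p = 1), but an r of 0.855 over the 4 lymphomas other than 53 and 70, so the value rests on those libraries. Lymphoma 53 had the lowest Kdm6a and the highest Kdm6b. Over the 3 pairs the adjusted exact permutation p was 0.654 or more for r and 0.725 or more for rho.

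The genes most like each member were ranked by Pearson r of log2 CPM over all 9 libraries, among 9423 tested genes with an average log2 CPM of at least 3. For Kdm6a they were Cast (r = 0.995), which encodes the calpain inhibitor calpastatin, Gimap8 (0.993), a lymphocyte GTPase gene, Helz2 (0.992), Tmem154 (0.992) and Fam65b (0.992). None of the 5 is on the X chromosome, and within the 6 lymphomas alone their r with Kdm6a was 0.893 to 0.962. All 5 fell in lymphoma, from Cast (-1.70, SE 0.175, edgeR adjusted p = 1.38e-05) to Fam65b (-3.45, SE 0.276, edgeR adjusted p = 2.39e-06). For Kdm6b they were Isca1 (0.948), an iron-sulfur cluster gene, Rab11b (0.930), Ypel1 (0.927), Arid1b (0.904), a chromatin remodeller subunit, and Pank2 (0.889). None of these 5 passed the test between groups, with log2 fold changes of -0.17 to 0.41. The points share library depth and the division into groups, so these values are descriptions. The genes were picked by likeness over these same 9 libraries. That those like Kdm6a fell, and those like Kdm6b did not pass, follows from this choice and is no separate result. The r within the 6 lymphomas also comes from libraries used in the ranking.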

How the data were processed

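Per the submitters' processing notes, FastQC, HISAT2, SAMtools and HTSeq were used with the builds mm10 and GRCm38. Versions, annotation, read length and strand setting are not given in the sources used here. The deposited table holds raw read counts by the authors for 46078 genes and 9 libraries, and 5 summary rows, which entered neither the library sizes nor the tests. Gene reads made up 27.8% to 49.1% of a library. Reads aligned to several places are in no gene's count. Positions and gene overlaps come from GENCODE M21 (GRCm38).

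From these counts edgeR 4.0.16 in R 4.3.3 kept 15401 genes (filterByExpr by group, minimum count 10), scaled libraries by TMM and compared the groups with a quasi-likelihood test (glmQLFit, robust) and no covariate. The adjusted p is Benjamini-Hochberg over these genes, with a threshold of 0.05. CPM are counts per 1000000 of the library size after scaling. For log2 CPM the prior count was 2. The SE is the absolute log2 fold change over the square root of F. Ratios are log2 of counts plus 0.5, tested by exact permutation over the 84 assignments of libraries (two-sided, 2 times the smaller tail). A group with at most 3 counts in each library was set to 3 counts in its shallowest library, and the fold is then a bound that covers counting error only. The functions were tested on simulated data.

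Members and gene lists were chosen with earlier results of these data known. The genes named are Kdm6a, Kdm6b, Uty and Ezh2, all members of the KMT2C and KMT2D complex, escape and Y-linked lists, the 3 largest rises and falls of other demethylases past the threshold, the largest rise and fall of each other list, and the 5 genes most like each member. Other genes (those of the NF-kB list but Jun, T cell markers but Cd4, Ezh1, Epcam, Irf8, Tcf4 and Gm26625) were chosen after their values were seen. Alternatives were RLE, upper quartile or no scaling, no filter or at least 10 counts in every library, DESeq2 1.42.0, limma 3.58.1 voom, a fit that is not robust, a threshold of 0.01, lymphomas 34, 70 and 72 averaged (no label states that each tumour is of separate origin), and leaving out each library.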

Additional observations from a re-analysis of the deposited data

Results flagged for a closer look

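Each named gene and each ratio, 55 results in all, was examined over the 6 lymphomas for a library whose gap to its nearest neighbour took more of the whole range than Dixon's 95% critical value. Chance flags about 1 in 20 such groups, or 2.75 of 55, and 8 were found. None of them was Kdm6a, Kdm6b, Uty, Ezh2 or a ratio of these. Lymphoma 53 was the library apart in 7. It was highest for Kmt2d at 226.2 CPM (others 91.8 to 108), Rbbp5 at 79.4 CPM (others 54.8 to 60.6), Ash2l at 175 CPM (others 112 to 131), Kdm1a at 129.8 CPM (others 80.4 to 95.2), Pecam1 at 81.3 CPM (others 59.3 to 64.8) and Isca1 at 15.5 CPM (others 7.35 to 10.2), and lowest for Ncoa6 at 34.3 CPM (others 50.8 to 60.7). Lymphoma 56 was highest for Fcer2a at 0.218 CPM, which is 3 counts.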

How the results depend on the processing

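Kdm6a, Uty and Ezh2 kept their direction and their call under every alternative that tested them (19, 18 and 19), with log2 fold changes of -1.33 to -1.16, 5.74 to 7.40 and 1.98 to 2.15. Kdm6b passed in none of 19, and its sign turned with RLE (-0.037), upper quartile (-0.084), library size alone (-0.016), 10 counts in every library (-0.042) and DESeq2 (-0.037), and ranged from -0.23 to 0.51 over fits without 1 library. With lymphomas 34, 70 and 72 averaged, the differences of the ratios were 3.37 (Ezh2 to Kdm6a), 1.98 (Ezh2 to Kdm6b), 2.98 (Ezh2 to Ezh1), -1.39 (Kdm6a to Kdm6b) and 2.42 (Ezh2 to Kdm6a plus Uty). None passed, since so few libraries cannot. The same holds without a CD4 library. Over all fits that left out 1 library they ranged from 3.26 to 3.35, 1.59 to 2.24, 2.92 to 3.16, -1.69 to -1.10 and 2.30 to 2.40. The sum of Kdm6a and Uty passed with RLE (-0.33) and upper quartile scaling (-0.38); the cause was not tested. Upper quartile scaling moved the median of all tested genes by -0.10, and testing without a filter by 0.16.

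Without the 2 farthest lymphomas, r was -0.060 for Kdm6b and Ezh2 and 0.855 for Kdm6a and Kdm6b. With 10 counts in every library the number of changed genes was 1 in the H3K27 demethylase family (Uty and all other Y-linked genes were removed), 1 of the B cell markers, 4 plasmacytoid and 2 T cell markers. At an adjusted p of 0.01 it was 0 for escape genes, 0 for T cell and 3 for myeloid markers. T cell markers gave 2 with upper quartile and DESeq2 and 3 with voom. Without 1 library the numbers were 0 to 4 for escape genes, 1 to 4 for T cell, 3 to 6 for myeloid and 0 to 1 for erythroid markers, of which DESeq2 and voom called 1. Signs of genes near 0 also turned: Ncoa6 without a filter (0.022), with averaged lymphomas (0.0045) and without 1 library (-0.15 to 0.10), Isca1 with voom (0.057) and without 1 library (-0.53 to 0.84), Arid1b with upper quartile (-0.0072), and Rab11b with RLE (-0.036), upper quartile (-0.083), library size (-0.017), 10 counts (-0.042), DESeq2 (-0.037) and without 1 library (-0.088 to 0.26). Of 848 refits of 45 other named genes, 798 kept direction and call, 26 lost the call and 4 gained it. No paired analysis was possible because the groups share no replicate numbers.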
